A study of Homo sapiens with 4 samples.

Results

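EHBP1, OTX1, WDPCP and TMEM17 are 4 protein-coding genes that lie in a row on the short arm of human chromosome 2, and EHBP1L1 is the paralogue of EHBP1 on chromosome 11. The 5 genes were taken from a table of 60048 genes by their symbols, and each symbol was found once. EHBP1 was selected on its difference in nascent RNA signal between auxin and control, so the values of all 5 genes in that comparison are described here without a test. The others were added as its neighbours and paralogue. All 5 passed the filter on low values, which kept 39464 genes.

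The assay was EU-seq, applied to HCT116, a human colorectal carcinoma line. Cells take up 5-ethynyl uridine (EU), and the RNA made while it is present is captured and sequenced, so that introns add to the signal as well as exons. The cells of every library carried the RAD21-mAC genotype, in which RAD21, a core subunit of the cohesin ring that folds chromosomes into loops, bears a degron tag and is degraded when auxin is added. The control group held 2 libraries of cells given the solvent DMSO, and the auxin group held 2 libraries of cells kept for 3 h with the auxin indole-3-acetic acid at 0.5 mM; EU was given to all at 0.5 mM during 20 min. The labels do not say whether replicates came from separate cultures, so the spread between them may be technical. The degron acts on protein, and depletion of RAD21 was not measured here.

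EHBP1 (EH domain binding protein 1) connects EHD proteins, which remodel the membranes of recycling endosomes, with the actin cytoskeleton, and binds small GTPases of the Rab8 family through a C-terminal domain that it shares with EHBP1L1 and the MICAL proteins. OTX1 is a homeobox transcription factor known from forebrain and sense organ development. WDPCP belongs to the CPLANE complex, which prepares the base of the primary cilium for transport, and TMEM17 is a membrane protein of the ciliary transition zone, the gate between cilium and cell body.

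The table gives every gene by its whole span, with coordinates in GRCh38. EHBP1 (ENSG00000115504) covers chromosome 2, 62673851 to 63045597, on the plus strand, a span of 371747 bases. OTX1 (ENSG00000115507) follows on the same strand after a gap of 4459 bases, at 63050057 to 63057836. WDPCP (ENSG00000143951) lies on the minus strand at 63119559 to 63588477, with its start 131 bases from that of MDH1. TMEM17 (ENSG00000186889) lies on the minus strand at 62500218 to 62506195, on the other side of EHBP1, and 167.66 kb separate the starts of the pair. EHBP1L1 (ENSG00000173442) covers chromosome 11, 65576053 to 65592650, on the plus strand. Spans differ from RefSeq in places: RefSeq extends WDPCP by 252349 bases upstream and TMEM17 by 46687 bases downstream of what the table counts.

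The DNA ahead of the starts of EHBP1, its downstream neighbour and its paralogue is shown because these genes sit side by side, or share ancestry, and had different values after auxin. RefSeq lists 3 start sites for EHBP1. The first lies 27 bases inside the table's start and the second 32.46 kb inside it. The start used for OTX1 lies 773 bases inside the table's span of that gene, and RefSeq's own span of OTX1 begins 322 bases before the table's. Each line gives the 250 bases before a start, 5′ to 3′ on the gene's strand, from RefSeq's GRCh38.p14 table. Capitals mark the GC box GGGCGG, a binding sequence of SP factors, and the core GCGTG of the element bound by the aryl hydrocarbon receptor, each on either strand.
EHBP1, first start, chr2:62673628-62673877, plus strand: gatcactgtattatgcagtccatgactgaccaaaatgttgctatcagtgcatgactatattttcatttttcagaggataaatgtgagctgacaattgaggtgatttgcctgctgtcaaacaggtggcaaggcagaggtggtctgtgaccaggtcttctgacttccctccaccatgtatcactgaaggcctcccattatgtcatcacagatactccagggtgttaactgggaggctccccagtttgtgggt
EHBP1, second start, chr2:62706063-62706312, plus strand: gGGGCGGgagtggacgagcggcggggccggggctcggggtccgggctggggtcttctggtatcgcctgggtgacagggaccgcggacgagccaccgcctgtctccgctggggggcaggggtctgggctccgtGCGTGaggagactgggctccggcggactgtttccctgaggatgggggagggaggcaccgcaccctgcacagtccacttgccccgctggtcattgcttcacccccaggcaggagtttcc
OTX1, chr2:63050580-63050829, plus strand: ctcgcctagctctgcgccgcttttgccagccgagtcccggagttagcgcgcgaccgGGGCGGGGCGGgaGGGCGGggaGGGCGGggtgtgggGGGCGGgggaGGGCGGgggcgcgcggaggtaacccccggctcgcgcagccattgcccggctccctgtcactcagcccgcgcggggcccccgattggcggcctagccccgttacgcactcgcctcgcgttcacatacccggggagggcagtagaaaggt
EHBP1L1, chr11:65575803-65576052, plus strand: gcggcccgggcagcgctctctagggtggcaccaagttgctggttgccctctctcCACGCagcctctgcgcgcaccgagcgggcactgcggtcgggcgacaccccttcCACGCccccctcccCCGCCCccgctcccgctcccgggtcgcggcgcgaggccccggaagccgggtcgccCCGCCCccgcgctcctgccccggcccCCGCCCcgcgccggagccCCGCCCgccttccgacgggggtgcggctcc
The first EHBP1 window has 46.4% G and C and not 1 CpG, and the second has 71.6%. The window of OTX1 has 75.2% and that of EHBP1L1 81.2%, against a median of 58.0% over 35116 RefSeq windows of the same length. OTX1 has 6 GC boxes and EHBP1L1 has 4, the second EHBP1 window has 1 and the first has none; 42.6% of all windows hold at least 1. GCGTG occurs 1 time before the second EHBP1 start and 2 times before EHBP1L1, and 32.2% of all windows hold it. Of the windows not shown, that before the table's start of WDPCP holds it 3 times. RefSeq's longer span of WDPCP begins further upstream, and no window there was used. The windows of a WDPCP start 150.47 kb inside the table's span, of the third EHBP1 start and of TMEM17 do not hold GCGTG. The table gives 1 value for the whole span of a gene and does not separate RNA from different starts.

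The deposited values are named as read counts but were taken here as a scaled signal, and the sequencing depth behind them is unknown. Totals ranged from 61135244 to 93113007 per library. Every value given here was rescaled (trimmed mean of M-values) unless the deposited scale is named. This divided the libraries by 0.9969 and 1.0196 (control replicates 1 and 2) and by 0.8131 and 1.2101 (auxin replicates 1 and 2). Rescaled values are relative to the other genes, so a change shared by most genes would not show. The 5 epithelial markers EPCAM, CDH1, KRT8, KRT18 and KRT19 had mean signals between 124 and 2062 per kb. Of the colorectal markers, CDX2 had 207 and VIL1 22.4, while CDX1 and LGR5 were below 1 per kb. Of the markers of other cell types, PTPRC, COL1A2 and ALB were below 1, PECAM1 was at 3.03 and COL1A1 at 45.6 per kb. Across the table, limma called 284 of the 39464 genes tested at an adjusted p under 0.05, which is 0.72%: 131 were higher with auxin (0.332%) and 153 lower (0.388%).

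EHBP1 was the member whose signal differed between the groups by much more than the spread within them. Its scaled signal was 23432 and 23974 in the control libraries and 8386 and 9114 in the auxin libraries. Both auxin libraries thus lay far below both control libraries, and after rescaling the libraries of each group lay close together. Control averaged 23703 ± 383 and auxin 8750 ± 515 (SD, n = 2 each), so that 36.9% of the control level was left. The log2 fold change was -1.44 (SE 0.11), where log2 fold changes are differences of log2(scaled signal + 1), and setting each auxin library against each control library gave values from -1.51 to -1.36. Without each library in turn it lay between -1.50 and -1.38. On the deposited scale it was -1.46, with a larger SE of 0.42. There the control libraries stood at 23359 and 24443 and the auxin libraries at 6818 and 11028.5, further apart.

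OTX1, which starts 4459 bases behind the end of EHBP1 and is read in the same direction, had a signal of 1153 and 1029 in the control libraries and 924 and 842 in the auxin libraries. The auxin libraries were again the lower ones, but the gap between the groups was smaller than that between the control libraries. Control averaged 1091 ± 87.6 and auxin 883 ± 58.1 (SD, n = 2 each), which gave -0.30 on the log2 scale (SE 0.18). The change left 80.9% of the control level, against 36.9% in EHBP1. Leaving out control replicate 1 gave -0.22 and leaving out control replicate 2 gave -0.40.

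WDPCP, the ciliary gene beyond OTX1, had a signal of 2422 and 2500 in control and 2434 and 2955 in auxin. The groups overlap, since auxin replicate 1 lies between the control libraries. The log2 fold change was 0.12 (SE 0.16), and -0.016 without auxin replicate 2, which alone stood above the rest. TMEM17, the transition zone gene upstream of EHBP1, had 109.6 and 264 in control and 143 and 202 in auxin. Both auxin libraries fell between the control libraries, and the log2 fold change was -6.7e-05 (SE 0.38). Leaving out control replicate 1 gave -0.63 and leaving out control replicate 2 gave 0.62, so the libraries give no direction for this gene.

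EHBP1L1 encodes a protein of the same build as EHBP1 that takes part in Rab8-dependent transport to the apical membrane. Its signal was 4607 and 5252 in control and 4928 and 5490 in auxin. The groups overlap, at 4929 ± 456 and 5209 ± 398 on average (SD, n = 2 each). This came to 0.08 on the log2 scale (SE 0.14), and it was -0.011 without control replicate 1. The paralogue's signal was thus at 105.7% of its control level where that of EHBP1 was at 36.9%. Both auxin libraries lay below both control libraries in EHBP1, which was selected on this comparison. Among its neighbours and paralogue only OTX1 showed this order, which 19.2% of all tested genes showed. None of the 5 showed the opposite order, which 18.9% of all tested genes showed.

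**Figure D1:**
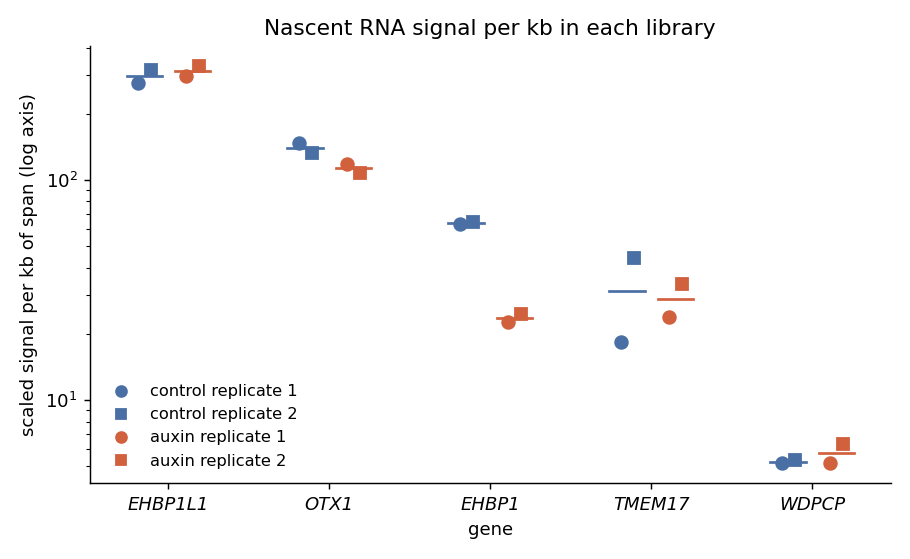
Scaled signal per kb of genomic span (log axis) of the 5 genes, with a point for each library and a bar at each group mean (n = 2). The auxin points of EHBP1 lie at 22.6 and 24.5 per kb, below the control points at 63.0 and 64.5, while the points of TMEM17, WDPCP and EHBP1L1 overlap between the groups.

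Per kb of span, with introns and exons not separated, EHBP1L1 was highest in control at 297 ± 27.5 and OTX1 next at 140 ± 11.3. Then came EHBP1 at 63.8 ± 1.03, TMEM17 at 31.2 ± 18.2 and WDPCP at 5.25 ± 0.12 (SD, n = 2 each). No neighbours in this order overlapped between control libraries. After auxin EHBP1 stood at 23.5 ± 1.39 and TMEM17 at 28.9 ± 6.95 per kb, and their libraries overlapped (22.6 and 24.5 against 24.0 and 33.8). Among the 17767 protein-coding genes tested, 50.3% had a lower mean per kb than EHBP1 in control and 33.8% in auxin. For OTX1 these shares were 68.6% and 63.8%, for EHBP1L1 85.8% and 87.6%, for TMEM17 37.7% and 36.5%, and for WDPCP 20.4% and 20.9%.

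The signal was lower in each annotated stretch inside EHBP1 and in the rest of the gene. The table does not separate strands: in all 9987 pairs of a gene lying wholly inside a gene of the other strand, the inner value was no larger than the outer in any library. The antisense lncRNA genes inside EHBP1 therefore share their signal with it, and RNA of either strand may add to the values. They serve here as positions along EHBP1, not as separate genes. AC092567.1, a stretch of 32375 bases from 152.2 to 184.6 kb behind the start of EHBP1, had 84.5 and 81.2 per kb in control and 30.6 and 29.2 in auxin. AC007098.1, from 283.5 kb to 2059 bases beyond the end of EHBP1, had 48.7 and 51.0 in control and 18.8 and 18.9 in auxin. AC092567.2, at 143.9 to 145.9 kb, had 40.7 and 30.9 in control and 15.7 and 15.6 in auxin.

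These stretches kept 36.1%, 37.8% and 43.7% of their control level. The pseudogene RPS20P9, only 367 bases long, had 64.8 and 27.7 per kb in control and 12.2 and 24.5 in auxin, with 39.6% left. The remaining 248.79 kb of EHBP1, after the values of these 4 stretches were taken off, had 65.1 and 67.0 per kb in control and 22.8 and 25.8 in auxin, with 36.8% left. In each of the 5 stretches both auxin libraries lay below both control libraries, an order that 19.2% of all tested genes showed. The stretches hold parts of the signal on which EHBP1 was selected, so their shared order is a description and not a test. The levels themselves varied along the gene, the stretch of AC092567.1 being higher per kb than that of AC007098.1 near the 3′ end in every library, while the share left after auxin was similar in both. The first 52.8 kb of EHBP1, which hold its 3 RefSeq starts, contain no other annotated gene and could not be looked at apart.

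**Figure D2:**
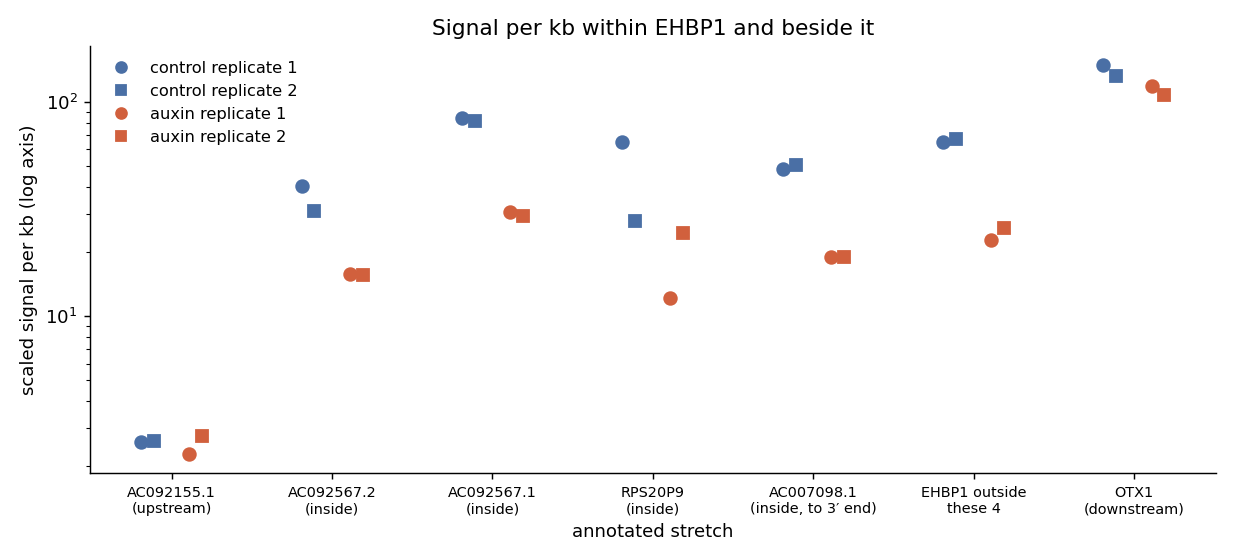
Scaled signal per kb (log axis) in each library for 4 annotated stretches inside EHBP1, for the rest of EHBP1, for the lncRNA gene AC092155.1 upstream of it and for OTX1 downstream of it. The auxin points lie below the control points in every stretch of EHBP1, with 36.1% to 43.7% of the control mean left, and overlap with them in AC092155.1.

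At the borders of EHBP1 the values were different. The lncRNA gene AC092155.1 lies on the minus strand and starts 11196 bases upstream of EHBP1. It had 333 and 338 in control and 293 and 356 in auxin. Its log2 fold change was -0.056 (SE 0.21), with a limma adjusted p of 0.984. On the other side, AC007098.1, also on the minus strand, starts 2400 bases before OTX1, whose values are given above. The nearest protein-coding genes beyond the row of 4 are B3GNT2, which makes poly-N-acetyllactosamine chains on glycoproteins, 275.49 kb from TMEM17, and MDH1, the cytosolic malate dehydrogenase, 131 bases from WDPCP. B3GNT2 had 5222 and 3804 in control and 4107 and 4082 in auxin (change on the log2 scale -0.12, SE 0.17, adjusted p = 0.921). MDH1 had 1989 and 2378 in control and 1901 and 1899 in auxin (-0.19, SE 0.16, adjusted p = 0.813). By RefSeq's longer span of WDPCP, MDH1 would lie inside that gene rather than beyond it.

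The table holds 69 other genes within 1 Mb of the row of 4 genes, of which 39 were tested. Of these, 2 were past the limma threshold (5.13%, against 0.72% of all genes tested), AC092567.1 and AC007098.1, both inside or across EHBP1 and sharing its signal. Leaving out the 5 genes that overlap EHBP1, 35 were tested and 0 passed; 2 had an unadjusted p under 0.05, against 10.2% of all genes tested. Both were higher with auxin and are named after their values were seen: AC016734.1, inside WDPCP (6.80 and 6.11 in control, 25.95 and 20.2 in auxin, adjusted p = 0.305), and AC008074.2 (7.64 and 15.3, then 25.95 and 30.3, adjusted p = 0.437). The median log2 fold change of the 35 was -0.0046, against 0.013 over all genes tested. The 11 other protein-coding genes tested ranged from -0.27 to 0.14.

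**Figure D3:**
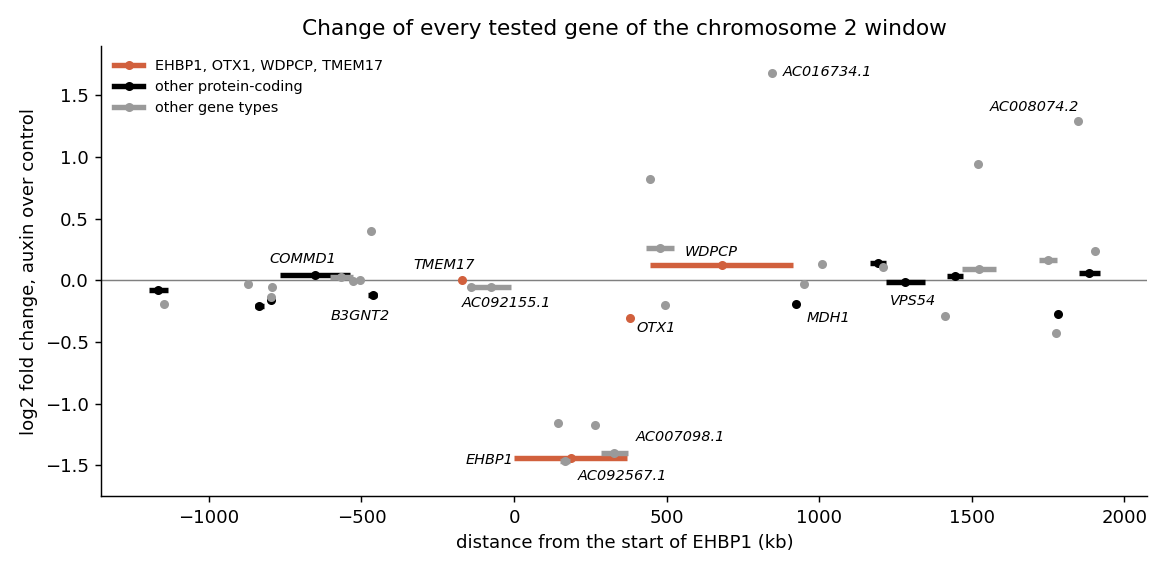
Log2 fold change of each of the 43 tested genes of the chromosome 2 window, drawn as a bar over its span against the distance from the start of EHBP1, with a point at its middle. EHBP1 and the 4 tested genes inside or across it lie between -1.47 and -1.16, and the 11 other protein-coding genes lie between -0.27 and 0.14.

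EHBP1 is a long gene, and it was set beside other long genes as a description, since the same comparison chose it. There were 717 protein-coding genes of at least 300 kb with a mean scaled signal of at least 50. Their median log2 fold change was -0.0054, with quartiles of -0.15 and 0.12, and limma called 5 of them up and 12 down, EHBP1 itself being among the 717; of all genes tested, 0.332% were called higher and 0.388% lower. EHBP1 had the lowest log2 fold change of the 717, and WDPCP stood at position 542 from the lowest. Among all 15994 protein-coding genes of that level, EHBP1 stood at position 27 from the lowest and OTX1 at position 2083.

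The genes most like EHBP1 were sought by the root mean square difference of log2 values over the 4 libraries, after the mean of each gene was taken off; only 4 values enter this measure. The nearest of the protein-coding genes were NUAK2, a kinase of the AMPK-related family (difference 0.0613), FUT8, the enzyme that adds the core fucose to N-glycans (0.0644), and TMEM200A (0.0823). NUAK2 had 2333 and 2528 in control and 880 and 1022 in auxin (log2 fold change -1.36, SE 0.17), with 39.1% left. FUT8 had 8505 and 9309 in control and 3367 and 3714 in auxin (-1.33, SE 0.13). It is also a long gene, of 333.53 kb, and its span overlaps 4 other genes. TMEM200A had 1086 and 1001 in control and 389 and 444 in auxin (-1.32, SE 0.19). NUAK2, FUT8 and TMEM200A lie on chromosomes 1, 14 and 6 and were picked for this pattern, so it is not tested. The genes nearest to OTX1 were LRRC8B (0.00449), PER3 (0.00569) and SHROOM1 (0.0107), with log2 fold changes of -0.31, -0.29 and -0.29.

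The genes around EHBP1L1 on chromosome 11 were examined in the same way. Within 100 kb of it the table holds 21 other genes, of which 18 were tested and 0 passed the limma threshold, where 0.72% of all genes tested did; 1 had an unadjusted p under 0.05, where 10.2% of all genes did. This was RELA, the NF-kB subunit p65, with 5463 and 5355 in control and 6596 and 6567 in auxin (0.28 on the log2 scale, SE 0.13, adjusted p = 0.484). The median of the 18 was -0.050. In KCNK7, whose end lies 204 bases from that of EHBP1L1, the value was -0.21 (SE 0.28, adjusted p = 0.920).

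A list of 16 genes linked to EHBP1 and EHBP1L1 was followed: the EHD proteins, Rab8-like GTPases, the MICAL proteins, BIN1 and PACSIN2. They are called partners for short, although the MICAL proteins are related to EHBP1 by a shared domain. All 16 were tested, 2 of them were called, both lower (12.5%, against 0.72% of all genes tested), and the median was -0.028 on the log2 scale. The list was chosen with earlier results of these data known, so this share is only a description. MICAL2, which oxidises actin filaments, fell from 26008 and 24478 in control to 14875 and 16243 in auxin, by 0.70 on the log2 scale (SE 0.11, limma adjusted p = 0.0196). EHD2, an ATPase of caveolar membranes and a binding partner of EHBP1, fell from 10095 and 9568 to 5183 and 6417 (-0.77, SE 0.14, adjusted p = 0.0418). In both genes the groups do not overlap. MICAL2 shares its span with AC079329.1 and EHD2 with AC010519.1, whose signal cannot be told apart from theirs. Their calls were lost without either control library (adjusted p = 0.107 and 0.106 for MICAL2, 0.168 and 0.161 for EHD2), and that of EHD2 also without auxin replicate 1 (0.0853) and with no filter on low values (0.0581). Without a control library the log2 fold change was -0.65 or -0.75 in MICAL2 and -0.73 or -0.82 in EHD2. On the deposited scale, where the auxin libraries stand further apart, the adjusted p of both was 1, at log2 fold changes of -0.72 and -0.79.

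The other 14 partners had values that did not pass the test; over the whole list 4 genes had an unadjusted p under 0.05, 1 higher and 3 lower, against 10.2% of all genes tested. Besides MICAL2 and EHD2 these were RAB8B and BIN1, named after their values were seen. RAB8B, a close relative of RAB8A, had 1215 and 1201 in control and 1574 and 1727 in auxin (0.45 on the log2 scale, SE 0.16, adjusted p = 0.338), and the groups do not overlap. BIN1, a membrane-bending protein that binds EHBP1L1, had 11459 and 6910 in control and 6952 and 5108 in auxin (-0.58, SE 0.23, adjusted p = 0.388), and the groups overlap. EHD1, which acts with EHBP1 at recycling endosomes, had 12413 and 11127 in control and 11599 and 11705 in auxin (log2 fold change -0.012, SE 0.12). RAB8A had 9580 and 10032 in control and 8601 and 9893 in auxin (-0.088, SE 0.13), and RAB10, another GTPase bound by EHBP1, 23543 and 23766 in control and 26305 and 27227 in auxin (0.18, SE 0.10). The auxin libraries of RAB10 lie above the control libraries, and those of EHD1 and RAB8A overlap with them. These 3 genes are named for their role.

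Of 8 homeobox genes related to OTX1, 5 were tested and 0 passed the limma threshold, against 0.72% of all genes tested; 3 had an unadjusted p under 0.05, against 10.2%. OTX2, the nearest relative of OTX1, was listed at 0 in 3 libraries and at a scaled signal of 2.25 in auxin replicate 2, and GSC at 0 in all 4. The smallest p was that of PITX1, which specifies hindlimb and pituitary, with 2437 and 2371 in control and 1920 and 1604 in auxin (-0.45 on the log2 scale, SE 0.16, adjusted p = 0.325); its span overlaps that of C5orf66. DMBX1, also with an unadjusted p under 0.05 and named after its values were seen, had 458 and 398 in control and 576 and 595 in auxin (0.45, adjusted p = 0.459). The median of the 5 was 0.065.

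Of 24 genes of the ciliary transition zone and the CPLANE complex, which work with TMEM17 and WDPCP, all were tested and 0 passed the limma threshold, against 0.72% of all genes tested. An unadjusted p under 0.05 was found in 4 of the 24, against 10.2% of all genes; 1 was higher and 3 lower. Over the 24 genes the median was -0.046 on the log2 scale. NPHP4, a nephrocystin, had the smallest p, with 9100 and 8238 in control and 6280 and 6660 in auxin (-0.42, SE 0.13, adjusted p = 0.220); its span overlaps that of KCNAB2. The other three, named after their values were seen, were AHI1 (-0.46, adjusted p = 0.224), TMEM67 (-0.37, adjusted p = 0.472) and the tectonic TCTN2 (0.54, adjusted p = 0.265). The 4 partners of WDPCP in the CPLANE complex had log2 fold changes of 0.030 (INTU), 0.24 (FUZ), 0.15 (CPLANE1) and 0.067 (CPLANE2), none past the threshold.

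**Figure D4:**
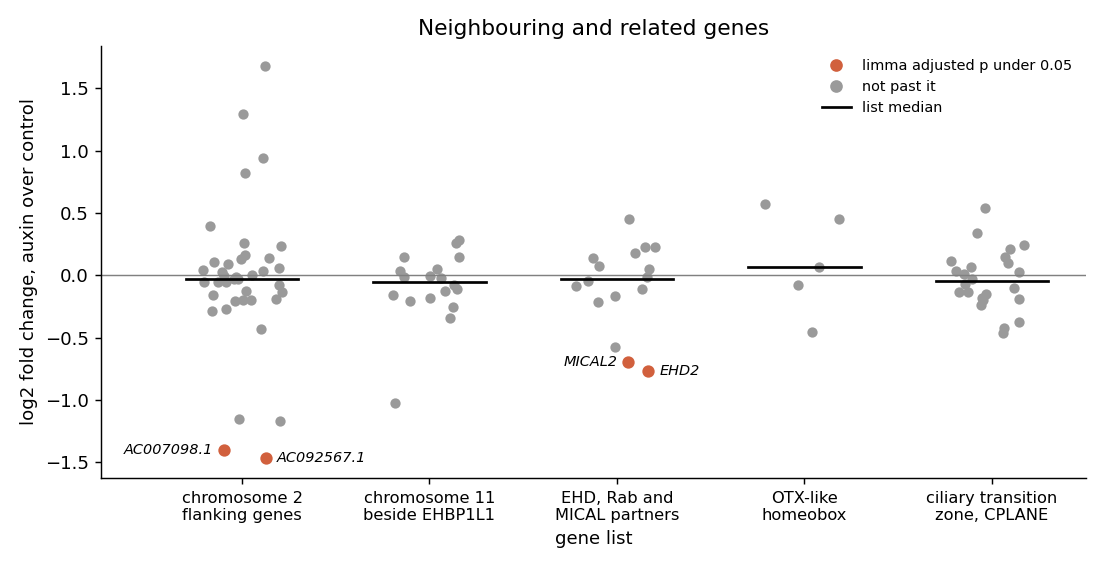
Log2 fold change of each tested gene of the 5 lists, with coloured points for genes at a limma adjusted p under 0.05 and a line at each list's median. The medians lie between -0.050 and 0.065, and the coloured points are AC092567.1 and AC007098.1, which share the signal of EHBP1, and MICAL2 and EHD2.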

How the data were processed

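Per the labels' protocols, labelled HCT116 RNA was mixed with labelled RNA of fly S2 cells before capture, and a strand-specific kit was used. Per the submitters' processing notes, Trimmomatic 0.39, Bowtie2 2.4.5 and deepTools 3.5.1 were used with the builds hg38 and dm6; how values per gene and their scaling were made is not given in the sources used here. The authors deposited 1 table, named as read counts, with a value per gene and library that was taken here as a scaled signal. Low values were whole multiples of 1 step per library (0.847 and 1.038 for the control libraries, 0.728 and 1.358 for the auxin libraries; 100% of values up to 20 steps, within 0.05 of a step). Genes of at least 10 kb held exactly 1 step only 2 to 8 times per library but 2 steps 141 to 221 times, so a step was not taken for a read and no count test was run. A misspelt column was assigned to control replicate 2 by its number. Starts were read as counting from 0: of 37753 symbols matched to RefSeq (GRCh38), 19990 had a start 1 base lower.

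Genes entered the test with a value of 10 or more, relative to the median library total, in 2 or more libraries, and a sum of 15 or more. Scale factors were unweighted trimmed means of M-values, with 30% of the ratios and 5% of the levels cut at each end. Log2(value + 1) was fitted with limma 3.58.1 in R 4.3.3 (lmFit, eBayes with trend, auxin against control, prior degrees of freedom 8.107) over the whole table, with Benjamini-Hochberg adjustment at 0.05. The design foresaw a count test only if the table held counts. The fit was tested on simulated data with independent noise drawn from its own estimate of spread. That simulation leaves out the correlation of replicate differences between the groups described below. Figures were drawn with matplotlib 3.10.9 under Python 3.11.15, and tables made with pandas 2.3.3.

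The members and gene lists were chosen with earlier results of these data known. Named genes are the 5 members, the called genes of each list or else that with the smallest p, the nearest protein-coding genes of the locus, and the 3 genes most like EHBP1 and OTX1. Beyond this rule, EHD1, RAB8A, RAB10, OTX2, GSC and the CPLANE partners were named for their role, KCNK7 and AC092155.1 for their position, and AC016734.1, AC008074.2, DMBX1, RAB8B, BIN1, AHI1, TMEM67 and TCTN2 for an unadjusted p under 0.05, after their values were seen. Alternatives were other scalings, the deposited scale, no filter, a mean of at least 50, pseudocounts of 0.1 and 10, the replicate number as a block, and leaving out each library. Values of 1 gene of the lists are not reported here.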

Additional observations from a re-analysis of the deposited data

How the results depend on the processing

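Over all alternatives the log2 fold change of EHBP1 ranged from -1.50 to -1.38 and that of OTX1 from -0.40 to -0.22; with 2 libraries a group, leaving one out moves the value by a fixed part of the replicate difference and is no test of stability. The signs of WDPCP, TMEM17 and EHBP1L1 depended on single libraries: without each library in turn they ranged from -0.016 to 0.26, from -0.63 to 0.62 and from -0.011 to 0.16. The 284 called genes became 55 on the deposited scale (28 higher, 27 lower, 48 shared), where the auxin libraries differ most in total; the cause was not tested. Scaling by library totals gave 142 higher and 128 lower, against 131 and 153. The calls became 203 with no filter, and ranged from 57 to 674 without each library in turn: 57 without control replicate 2, 113 without control replicate 1, 512 without auxin replicate 2 (149 higher, 363 lower) and 674 without auxin replicate 1. The prior degrees of freedom were infinite on the deposited scale and in both fits without an auxin library. They were 8.107 in the main fit, and 6.942 and 6.963 without control replicates 1 and 2. The numbers of calls thus rest on different models of spread. On the deposited scale 0 of the EHD, Rab and MICAL partners and 0 of the chromosome 2 flanking genes were called. Among the partners 1 was called with no filter, and 0 to 2 without each library in turn.

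No label ties equal replicate numbers to a common culture or date, and only 2 pairs exist. The differences between replicates 2 and 1 correlated between control and auxin across genes (Pearson's r 0.231 and Spearman's rho 0.306 over 39464 genes, 0.462 and 0.448 over the 29157 with a mean of at least 50); genes are not independent replicates. Fitting the replicate block raised the calls to 4264, of which 1982 were higher and 2282 lower; they included all 284, and the prior degrees of freedom were infinite, so genes shared 1 trend of spread. In that fit, where 4264 of 39464 genes were called, the calls held 4 of 16 partners, 3 of 5 OTX-like genes, 5 of 24 ciliary genes, 3 of 39 chromosome 2 flanking genes and 1 of 18 genes beside EHBP1L1. With 2 libraries a group and the depth in reads unknown, precision rests on the spread between replicates.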
